A study of Mus musculus with 12 samples.

Results

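The 8 heat shock chaperone genes Hspa1a, Hspa1b, Hsph1, Dnajb1, Hsp90aa1, Hspb1, Hspa8 and Hspd1 were followed in mouse kidney RNA. They were chosen by name, and each matched 1 of the 33188 genes in the deposited table; all 8 had enough reads to be tested. The 12 libraries fell into 3 groups of 4 wild-type kidneys and were made by a strand-specific method. XZSW was the hyperuricemia model treated with the decoction Xin-Zi-Sheng-Wan. HUA was the model without the decoction, in which potassium oxonate, an inhibitor of urate breakdown, and hypoxanthine, a purine precursor of urate, raise uric acid. CTL was the control. The labels give no age, sex, dose or time, and both model groups received oxonate and hypoxanthine. Whether the 4 kidneys of a group belonged to different animals is not stated, so each p-value rests on the spread among samples that could be technical repeats.

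Heat shock proteins hold unfolded proteins in a state from which they can refold. HSP70 proteins bind short stretches of an unfolded chain, J-domain proteins such as DNAJB1 deliver the chain and HSP110 proteins such as HSPH1 exchange the nucleotide that lets it go. HSP90 completes the folding of kinases and receptors, small heat shock proteins such as HSPB1 bind early unfolding forms without ATP, and the mitochondrial chamber of HSPD1 and HSPE1 folds imported proteins. HSPA8 is the constitutive HSP70, whereas Hspa1a and Hspa1b encode the inducible one. Heat shock factor 1 switches on many of these genes by binding heat shock elements, runs of inverted GAA blocks. HSPB1 also binds actin filaments and is known to be induced in injured kidney tubules.

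The bases before the start of 4 of the genes are shown because they hold such elements and belong to the genes that differed most between groups or, for Hspa1a, between libraries of a group. They are 200 bases each from RefSeq on GRCm38.p6, 5′ to 3′ on the gene's strand and ending at the base before the RefSeq start. Capitals mark the inverted pairs GAANNTTC and TTCNNGAA, which each read the same on both strands and which overlap where blocks follow one another.
Hspa1a, chr17:34972157-34972356, minus strand: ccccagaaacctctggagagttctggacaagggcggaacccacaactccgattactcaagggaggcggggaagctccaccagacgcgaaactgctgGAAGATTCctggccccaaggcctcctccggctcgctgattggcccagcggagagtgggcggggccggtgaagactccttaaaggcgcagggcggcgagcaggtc
Hsph1, chr5:149636337-149636536, minus strand: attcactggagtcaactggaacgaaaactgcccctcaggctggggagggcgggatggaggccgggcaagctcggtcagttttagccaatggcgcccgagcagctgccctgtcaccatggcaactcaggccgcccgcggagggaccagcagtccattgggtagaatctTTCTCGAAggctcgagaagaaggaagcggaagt
Hspb1, chr5:135887719-135887918, plus strand: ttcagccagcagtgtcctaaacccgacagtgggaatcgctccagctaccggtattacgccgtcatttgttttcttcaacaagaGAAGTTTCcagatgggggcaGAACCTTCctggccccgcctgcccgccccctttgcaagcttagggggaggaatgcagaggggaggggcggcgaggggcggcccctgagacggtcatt
Hspd1, chr1:55087933-55088132, minus strand: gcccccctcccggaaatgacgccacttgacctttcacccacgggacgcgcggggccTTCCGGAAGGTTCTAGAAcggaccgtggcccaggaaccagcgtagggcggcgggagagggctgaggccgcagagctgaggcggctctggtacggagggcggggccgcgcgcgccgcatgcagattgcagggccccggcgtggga
In 32851 RefSeq windows of 250 bases before to 50 bases after a start, 7.86% held GAANNTTC and 8.52% held TTCNNGAA. At least 1 of these pairs was in 15.1%. A run of 3 alternating blocks, GAANNTTC followed by NNGAA or the reverse complement of that run, was in 0.603%. Of the 8 genes, 6 had a window, and 5 of these held a pair in at least 1 window. The 4 shown and Hspa1b did, and both Dnajb1 windows held none. In the window nearest each gene's start, 4 of the 6 held a pair, as did 13 of 64 other chaperone genes. Among the 4 were Hspa1a and Hspa1b, which share nearly all bases before the start. For Hsf3, Dnaja3, Fkbp5 and Unc45a the nearest window lay 7774 to 88375 bases from the gene's start and held no pair. The 6 and the 64 are thus not sets of like windows. A run of 3 blocks was in the nearest window for 1 of the 6 and 3 of the 64. Over all their windows Hspd1 and Hsph1 held a run of 3 blocks. In Hspd1 overlapping runs at chr1:55088059-55088071 and chr1:55088064-55088076 lay 127 to 144 bases before the start shown, on the minus strand. The RefSeq start of Hspd1 at 55088243, which is where the files' gene starts, had none in its own window. The same bases lay 72 to 89 bases before the start of Hspe1, the gene of the partner of HSPD1, on the plus strand, so both windows read 1 array. The Hsph1 run, TTCTGGAAAGTTC at chr5:149636288-149636300, lay after the start on the minus strand and outside the bases shown. Upstream of Hspa1b 199 of 200 bases were those of Hspa1a. These matches describe letters and show no binding.

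Library totals were 51.6 to 74.3 M counts. Kidney tubule and glomerulus markers were present in every group, with sums over 9 genes of 8790 to 11870 CPM in XZSW, 3509 to 8096 CPM in HUA and 9628 to 11230 CPM in CTL. CPM is a gene's count relative to the library total after TMM scaling, which sets the bulk of genes equal between libraries. In bulk kidney, fewer cells of a type and less RNA per cell cannot be told apart. HUA2, HUA3, HUA4, XZSW3 and XZSW4 stood apart from the other 7 libraries by more counts on GC-rich genes. Their slope was 0.21 to 0.33 log2 units per 10 percentage points of GC. All CTL libraries were among the other 7. Transcript GC was 61.7% for Hspb1, 58.9% for Hspa1a, 58.1% for Hspa1b and 52.7% for Dnajb1. It was 47.3% for Hsph1, 46.8% for Hspd1, 45.9% for Hspa8 and 43.7% for Hsp90aa1. Higher Hspb1 and lower Hsph1, Hspa8 and Hspd1 in HUA against CTL, given below, go the way of this slope. Its part in them was not tested. Values within the 2 kinds of library are given where a call ends. The kinds were read from the GC slope of these counts, not from a label. HUA1, XZSW1 and XZSW2, of the same kind as CTL, differed from it in the slope of log2 CPM on log2 transcript length. That slope was 0.231, 0.157 and 0.110 per doubling of length in these libraries and -0.011 to 0.008 in CTL.

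Per gene length, Hspa8 was the most abundant of the 8 in every library other than HUA3, where Hspb1 was. Hspa8 took 48.6% to 65.9% of the 8 genes' summed FPKM in XZSW libraries, 22.5% to 48.7% in HUA libraries and 54.9% to 58.4% in CTL libraries. FPKM is the authors' read count scaled by gene length and library size. Hspb1 took 0.933% to 3.32% in XZSW libraries, 13.2% to 49.0% in HUA libraries and 0.496% to 0.724% in CTL libraries.

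**Figure D1:**
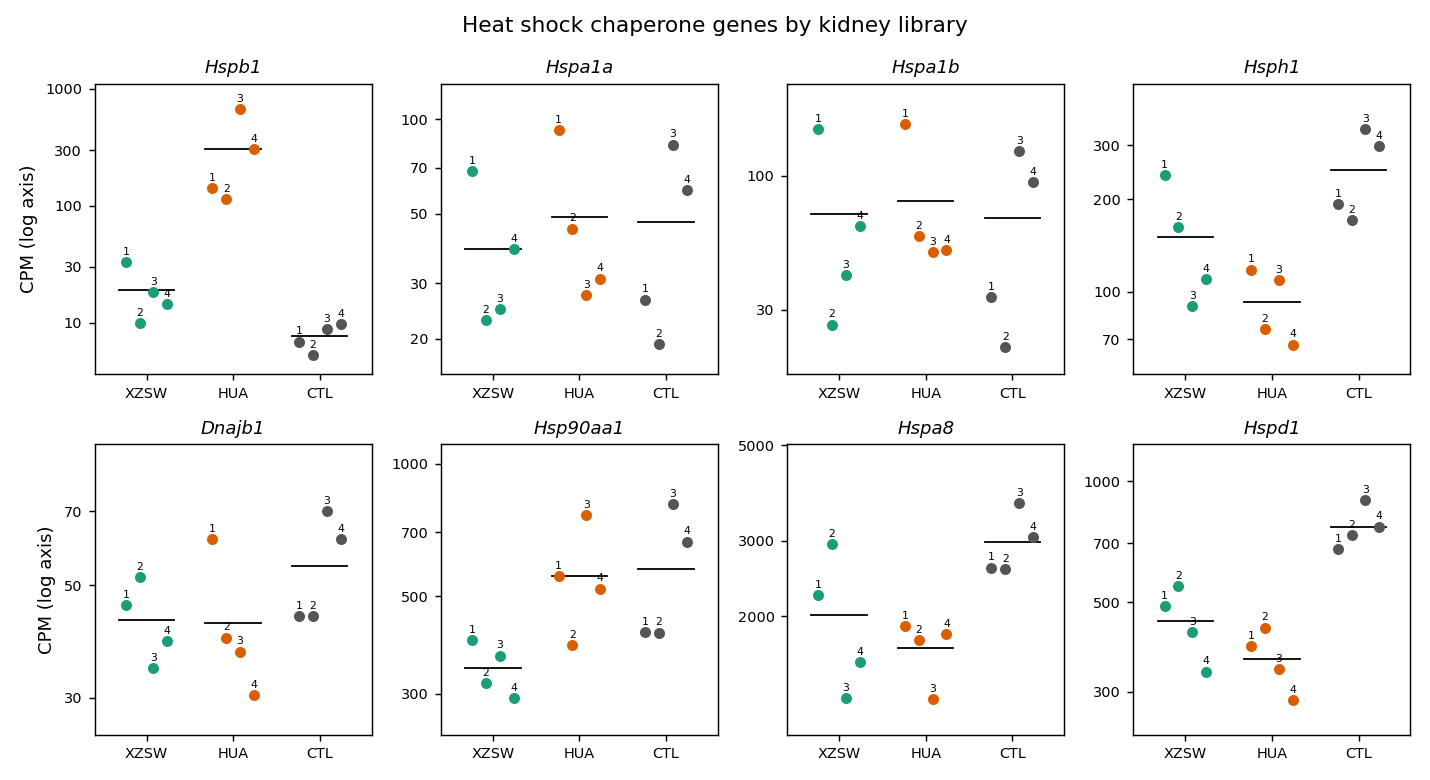
CPM of each heat shock chaperone gene (log axes that differ between panels) in the 4 XZSW, 4 HUA and 4 CTL libraries; points are libraries with their replicate number and lines are group means. Hspb1 was at 114.5 CPM or more in HUA libraries and at 33.0 CPM or less in all others. The group means of Hsph1, Hspa8, Hspd1, Dnajb1 and Hsp90aa1 were highest in CTL, and of these only Hspd1 had every CTL library above all others.

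In HUA against CTL, Hspb1 rose, Hsph1, Hspa8 and Hspd1 fell, and the other 4 genes were not called. A gene was called, and is said to have risen or fallen, where edgeR's quasi-likelihood test gave it a p below 0.05 after Benjamini-Hochberg adjustment across the 19772 genes tested. Across all genes 27.8% were called in this comparison, 14.9% higher and 12.8% lower. In XZSW against HUA, 1 of the 8, Hspb1, fell, against 15.4% of all genes called in either direction, 7.09% higher and 8.34% lower. In XZSW against CTL, 1 of the 8, Hspd1, fell, against 4.99% called in either direction, 2.72% higher and 2.27% lower. The median log2 changes of the 8 were -0.22, -0.08 and -0.46 in these 3 comparisons, and those of all tested genes 0.06, 0.01 and 0.04.

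Hspb1, the small heat shock protein (ENSMUSG00000004951, chromosome 5, 135887919 to 135889563, plus strand), had 33.0, 9.99, 18.4 and 14.4 CPM in XZSW1 to XZSW4, 141.4, 114.5, 669.4 and 304.4 CPM in HUA1 to HUA4 and 6.90, 5.34, 8.89 and 9.70 CPM in CTL1 to CTL4. None of the groups overlapped, with HUA highest, XZSW between and CTL lowest. In HUA against CTL Hspb1 rose 39.9-fold, a log2 change of 5.32 ± 0.59 (SE), with an edgeR adjusted p of 8.23e-05. It rose in all 24 alternative fits, by 4.2 to 5.66 on the log2 scale with adjusted p up to 0.000983. In XZSW against HUA it fell 16.2-fold, a log2 change of -4.02 ± 0.56 (SE) with an edgeR adjusted p of 0.00103. XZSW against CTL, at a log2 change of 1.3 ± 0.51 (SE), was not called (edgeR adjusted p 0.146), although all 4 XZSW libraries were above all 4 CTL libraries.

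The XZSW against HUA difference in Hspb1 was -4.46 within the GC-rich kind, 2 XZSW and 3 HUA libraries, where its edgeR adjusted p was 0.0898. Its spread within HUA was wide: HUA3 had 5.85 times the CPM of HUA2, and 1.83% of 9642 genes with a mean CPM of at least 10 had as large a ratio in HUA. Without HUA3 the calls remained, with leave-one-out log2 changes of 4.64 to 5.63 for HUA against CTL and -4.43 to -3.31 for XZSW against HUA.

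Other lists moved with Hspb1 between groups. All 8 tubular injury markers rose in HUA against CTL and all 8 fell in XZSW against HUA; their sums were 1601 to 2335 CPM in XZSW, 9257 to 53180 CPM in HUA and 849.6 to 995.2 CPM in CTL. Of 10 macrophage markers 8 rose in HUA against CTL and 4 fell in XZSW against HUA, with sums of 93.2 to 265.1 CPM in XZSW, 339.0 to 462.7 CPM in HUA and 75.5 to 130.1 CPM in CTL. Of 9 smooth muscle and fibroblast markers 6 rose in the first of these comparisons and 3 fell in the second, with sums of 61.3 to 229.2 CPM in XZSW, 270.3 to 699.1 CPM in HUA and 68.0 to 92.6 CPM in CTL. The macrophage and the smooth muscle and fibroblast sums were highest in HUA3, the library with the most Hspb1, and the tubular injury sum was highest in HUA4. Within HUA the order was not that of Hspb1 throughout. The macrophage sum was lowest of HUA in HUA4, which had more Hspb1 than HUA1 and HUA2. The smooth muscle and fibroblast sum was lowest of HUA in HUA1. The tubular injury sum was lowest of HUA in HUA2, the HUA library with the least Hspb1. No marker of these 3 lists was at 0 counts over a whole group. The part of these cells in the Hspb1 level was not tested. Over the 12 libraries the 5 genes outside the chaperone set most like Hspb1 in log2 CPM were Spns2 (Pearson r = 0.992), Msn (0.991), Slc25a24 (0.988), Arpc1b (0.988) and Gsto1 (0.988). These points share the groups, and r describes this set of libraries.

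Hsph1, the HSP110 exchange factor of HSP70 (ENSMUSG00000029657, chromosome 5, 149614287 to 149636376, minus strand), had 239.6, 162.5, 89.7 and 109.8 CPM in XZSW1 to XZSW4, 118.1, 75.7, 109.1 and 67.3 CPM in HUA1 to HUA4 and 192.9, 170.8, 338.0 and 298.4 CPM in CTL1 to CTL4. HUA lay wholly below CTL, and XZSW overlapped both. In HUA against CTL it fell 2.70-fold, a log2 change of -1.43 ± 0.32 (SE) with an edgeR adjusted p of 0.00505. XZSW was 0.70 ± 0.31 above HUA and -0.73 ± 0.31 from CTL on the log2 scale (SE), and neither was called (edgeR adjusted p 0.153 and 0.183). With the library kind as a further term the HUA against CTL change was -0.85 with an edgeR adjusted p of 0.0813. Among CTL and the libraries of the same kind, which leave 1 HUA library whose spread is taken from the others, it was -1.08 with an edgeR adjusted p of 0.0966. The 5 genes most like Hsph1 over the 12 libraries were P4ha1 (Pearson r = 0.954), Timm29 (0.943), Chordc1 (0.919), Nbn (0.919) and Gm15542 (0.918). Of these, Chordc1 encodes an HSP90 co-chaperone; it averaged 50.5 CPM in XZSW, 44.5 CPM in HUA and 83.6 CPM in CTL.

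Hspa8, the constitutive HSP70 (ENSMUSG00000015656, chromosome 9, 40800984 to 40810087, plus strand), had 2243, 2941, 1290.0 and 1566 CPM in XZSW1 to XZSW4, 1898, 1764, 1285 and 1818 CPM in HUA1 to HUA4 and 2596, 2577, 3666 and 3060.0 CPM in CTL1 to CTL4. Every HUA library was below every CTL library, and XZSW spanned both. In HUA against CTL it fell 1.76-fold, a log2 change of -0.81 ± 0.24 (SE) with an edgeR adjusted p of 0.0225. That call was made in 17 of 24 alternative fits and not, for example, with library totals alone (-0.49, edgeR adjusted p 0.0984), with the library kind as a term (-0.36, edgeR adjusted p 0.324), without HUA3 (-0.67, edgeR adjusted p 0.075) or without CTL3 (-0.70, edgeR adjusted p 0.0716). Among CTL and the libraries of the same kind, HUA1, XZSW1 and XZSW2, it was -0.64 with an edgeR adjusted p of 0.0907, with the spread of the lone HUA library taken from the others. XZSW differed from HUA by 0.25 ± 0.24 and from CTL by -0.57 ± 0.24 (log2, SE), without a call.

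Hspd1, the mitochondrial chaperonin HSP60 (ENSMUSG00000025980, chromosome 1, 55077835 to 55088243, minus strand), had 489.1, 547.7, 421.5 and 336.4 CPM in XZSW1 to XZSW4, 388.4, 432.5, 340.9 and 285.1 CPM in HUA1 to HUA4 and 677.7, 732.8, 896.6 and 770.6 CPM in CTL1 to CTL4. Both model groups lay wholly below CTL and overlapped each other. It fell 2.13-fold in HUA against CTL, a log2 change of -1.09 ± 0.18 (SE) with an edgeR adjusted p of 0.000884, and the call was made in all 24 alternative fits. It fell 1.72-fold in XZSW against CTL, a log2 change of -0.78 ± 0.18 (SE) with an edgeR adjusted p of 0.0297. That second call was lost in 7 of the 12 fits that each left out 1 library, with log2 changes of -0.89 to -0.66 over the 12 and adjusted p up to 0.0926; these 7 lacked CTL1, CTL2, CTL3, CTL4, XZSW1, XZSW3 or XZSW4 in turn. XZSW differed from HUA by 0.31 ± 0.18 (log2, SE), not called (edgeR adjusted p 0.263).

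Hsp90aa1, the inducible cytosolic HSP90 (ENSMUSG00000021270, chromosome 12, 110690605 to 110702728, minus strand), had 397.6, 316.9, 366.5 and 292.9 CPM in XZSW1 to XZSW4, 555.0, 387.8, 765.2 and 520.4 CPM in HUA1 to HUA4 and 414.2, 413.7, 810.0 and 666.1 CPM in CTL1 to CTL4. XZSW was the lowest group: all 4 of its libraries were below all 4 CTL libraries, and 1 of them, XZSW1, was above the lowest HUA library. The log2 changes were -0.70 ± 0.25 against HUA and -0.75 ± 0.25 against CTL (SE), with edgeR adjusted p of 0.0742 and 0.0925, so neither was called. Against HUA, DESeq2 gave an adjusted p of 0.0311 and library totals alone gave an edgeR adjusted p of 0.0352; over 25 alternative fits the adjusted p ran from 0.031 to 0.387, and 4 called it. HUA differed from CTL by -0.05 ± 0.25 (log2, SE), and the sign turned with library totals alone, at 0.28.

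Hspa1a (ENSMUSG00000091971, chromosome 17, 34969190 to 34972156) and Hspa1b (ENSMUSG00000090877, chromosome 17, 34956436 to 34959238), both on the minus strand, encode the inducible HSP70. Their coding sequences were 99.4% identical, and 68.3% of 100-base windows of the Hspa1a coding sequence occurred unchanged in Hspa1b, so the split of reads between them is uncertain. Hspa1a had 68.2, 22.9, 24.9 and 38.6 CPM in XZSW1 to XZSW4, 92.3, 44.8, 27.6 and 31.1 CPM in HUA1 to HUA4 and 26.6, 19.2, 83.0 and 59.4 CPM in CTL1 to CTL4. Hspa1b had 152.0, 26.2, 40.9 and 63.6 CPM in XZSW1 to XZSW4, 159.3, 58.2, 50.4 and 51.3 CPM in HUA1 to HUA4 and 33.6, 21.3, 125.1 and 94.3 CPM in CTL1 to CTL4. The same libraries were high for both: XZSW1, HUA1, CTL3 and CTL4. All 3 groups overlapped. No comparison was called for either gene, and the log2 changes of Hspa1a were 0.06 ± 0.50 in HUA against CTL, -0.34 ± 0.50 in XZSW against HUA and -0.28 ± 0.50 in XZSW against CTL (SE). For the 2 genes summed they were 0.16 ± 0.57, -0.24 ± 0.57 and -0.08 ± 0.57 (SE), with edgeR adjusted p of 0.872, 0.828 and 0.954.

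Dnajb1, the J-domain partner of inducible HSP70 (ENSMUSG00000005483, chromosome 8, 83608193 to 83612653, plus strand), had 45.7, 51.96, 34.4 and 38.8 CPM in XZSW1 to XZSW4, 61.7, 39.5, 37.0 and 30.4 CPM in HUA1 to HUA4 and 43.4, 43.5, 70.02 and 61.7 CPM in CTL1 to CTL4. The groups overlapped and no comparison was called, with log2 changes of -0.38 ± 0.23 in HUA against CTL, 0.02 ± 0.23 in XZSW against HUA and -0.36 ± 0.23 in XZSW against CTL (SE). Without HUA1, the highest HUA library, the first was -0.58 with an edgeR adjusted p of 0.0406.

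**Figure D2:**
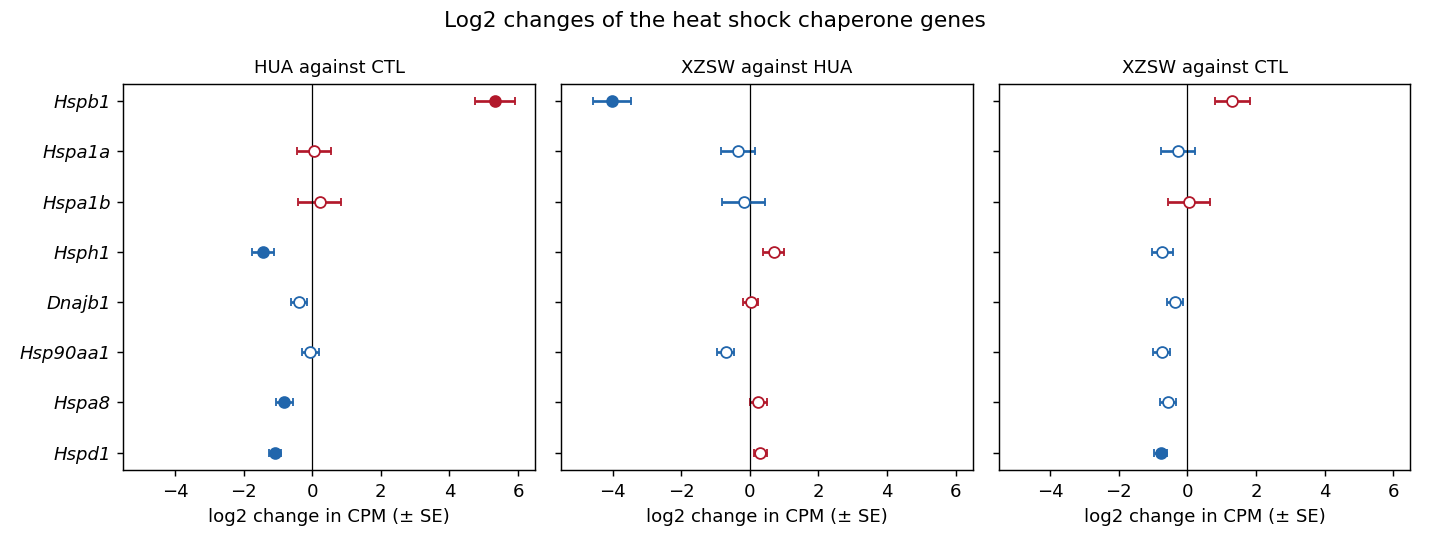
Log2 change in CPM with its SE for each gene, with HUA against CTL in the left panel, XZSW against HUA in the middle and XZSW against CTL on the right; filled points were called at an adjusted p under 0.05, and red and blue mark positive and negative changes. Hspb1 at 5.32 and -4.02 stands far from the other genes, whose called changes were -0.78 to -1.43.

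Exact two-sided permutation tests of the deposited FPKM, on log2(FPKM + 1), were run for the 8 genes in the 3 comparisons. The smallest p that 4 against 4 libraries allow is 0.0286, and none of the 24 tests can pass an adjustment over all genes. HUA against CTL reached an exact p of 0.0286 for Hspb1, Hsph1, Hspa8 and Hspd1, XZSW against HUA for Hspb1 and Hsp90aa1, and XZSW against CTL for Hspb1 and Hspd1. On this scale the difference of Hsp90aa1 in XZSW against HUA was -0.78. Its deposited FPKM was 68.7 to 95.3 in XZSW, 98.3 to 200.3 in HUA and 78.4 to 167.7 in CTL, so on FPKM XZSW lay wholly below HUA and overlapped CTL; on CPM it was HUA that it overlapped.

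Within groups Hspa1a and Hspa1b varied far more between libraries than most genes did. The highest over the lowest CTL library was 4.33 for Hspa1a and 5.86 for Hspa1b, against a median of 1.23 over the 9642 genes, and 0.487% and 0.332% of genes had as large a ratio. Other members were also wide in CTL: Hsph1, at 1.98, was met or passed by 3.27% of genes, Hsp90aa1, at 1.96, by 3.38% and Hspb1, at 1.82, by 4.68%. Dnajb1, at 1.61, was met or passed by 8.49% of genes, Hspa8, at 1.42, by 18.2% and Hspd1, at 1.32, by 29.9%. For Hspa1b the ratio was 5.80 in XZSW, with a median of 1.4 over all genes, and 3.16 in HUA, with a median of 1.63. A ratio as large as that of Hspa1b was met by 1.12% of genes in XZSW and 6.86% in HUA. For Hspa1a these shares were 3.19% and 5.99%. Across the 8 genes the same libraries led: CTL3 and CTL4 were the upper pair of CTL for 8 of 8 genes, XZSW1 was in the upper pair of XZSW for 8 of 8, and HUA1 was in the upper pair of HUA for 7 of 8. CTL2 was the lowest CTL library for 6 of 8. Hspa1a and Hspa1b share reads, and their deviations from the group means had an r of 0.98, so the 8 are not separate counts. The share of all genes with the same order of libraries was not worked out. HUA1 was the only HUA library outside the GC-rich kind, and XZSW1 and XZSW2 were the XZSW libraries outside it. XZSW2 was in the upper pair of XZSW for 4 of 8 genes and the lowest XZSW library for 3 of 8. All CTL libraries were of the same kind, so the kind does not separate CTL3 and CTL4 from CTL1 and CTL2. XZSW1 and HUA1 also had the highest red blood cell sums of their groups. They were 596.5 CPM in XZSW1 against an XZSW median of 138.2 CPM and 201.7 CPM in HUA1 against a HUA median of 25.4 CPM. CTL went the other way: this sum was highest in CTL2, at 579.2 CPM, and lowest in CTL3, at 363.6 CPM. A slope was taken over genes of log2 CPM, relative to the CTL mean, on log2 transcript length. It was the largest of its group in XZSW1, at 0.157, and in HUA1, at 0.231 per doubling of length. In CTL it was lowest in CTL4, at -0.011, and highest in CTL1, at 0.008. The adipocyte sum was highest in XZSW1 (242.5 CPM against an XZSW median of 46.1 CPM), but in HUA it was highest in HUA3. The immediate early sum went both ways: it was highest of HUA in HUA1 (1552 CPM against a HUA median of 909.6 CPM), lowest of XZSW in XZSW1 (121.2 CPM against an XZSW median of 203.1 CPM), and lowest of CTL in CTL4 and highest of CTL in CTL2. Their part in the order of the libraries was not tested.

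**Figure D3:**
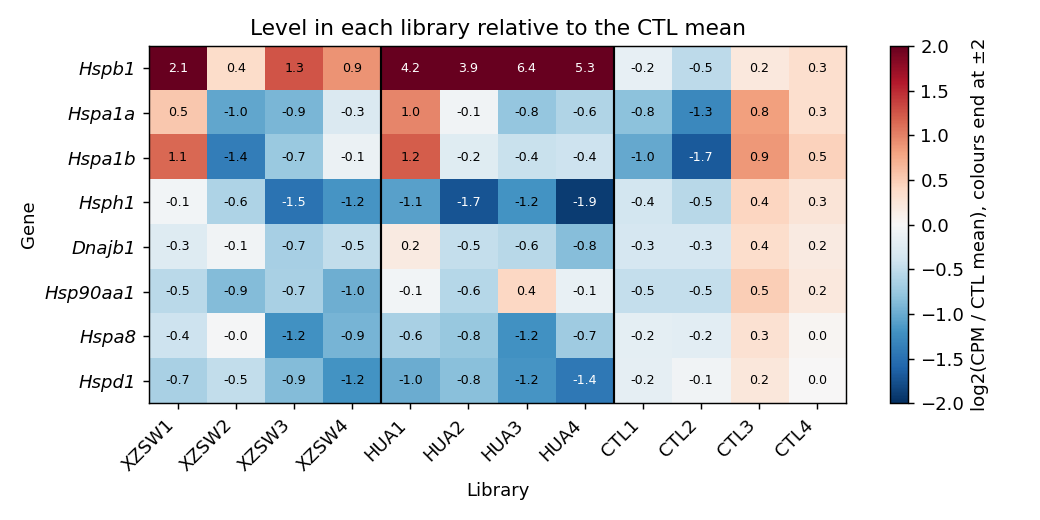
Log2 of each library's CPM over the CTL mean for the 8 genes, with XZSW, HUA and CTL libraries from left to right; the printed numbers are these log2 values and the colours end at 2 in either direction. The Hspb1 row is positive in all model libraries, the Hspd1 row is negative in all of them, and the Hspa1a and Hspa1b rows change sign between libraries of 1 group.

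Of 79 other chaperones, co-chaperones, heat shock factors and heat shock inducible genes, 78 were tested. In HUA against CTL 6 rose and 19 fell, beside the 14.9% of all genes that rose and the 12.8% that fell, with a median log2 change of -0.20. This split depended on the scaling: with library totals alone, which shifted the median of all genes by 0.33 on the log2 scale, 17 rose and 4 fell, and limma on log2(FPKM + 1) gave 16 and 3. Of all called genes TMM gave 53.8% as higher and library totals 81.4%. In XZSW against HUA 3 of the 78 rose and 7 fell, beside 7.09% and 8.34% of all genes. With library totals, which shifted the median of all genes by -0.17, 0 of the 78 rose and 12 fell. Over all genes 836 rose and 2714 fell with library totals, so 23.5% of calls were higher in place of 46.0%. In XZSW against CTL 2 rose and 5 fell, beside 2.72% and 2.27% of all genes. With library totals, which shifted the median by 0.16, 4 of the 78 rose and 3 fell. Over all genes 1221 rose and 224 fell with library totals, so 84.5% of calls were higher in place of 54.5%. Upper quartile scaling gave 67.2%. The counts of the smaller families in HUA against CTL, given next, stand beside the same 14.9% of all genes that rose and 12.8% that fell.

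None of the heat shock factor genes was called in any comparison. Hsf1, the main heat-responsive factor, had 31.7, 35.9, 33.7 and 36.4 CPM in XZSW1 to XZSW4, 24.7, 33.7, 40.4 and 29.0 CPM in HUA1 to HUA4 and 29.4, 26.8, 29.6 and 30.4 CPM in CTL1 to CTL4. Its log2 changes were 0.14 ± 0.14 in HUA against CTL and 0.11 ± 0.14 in XZSW against HUA (SE). In XZSW against CTL it was 0.25 ± 0.14 (SE), not called (edgeR adjusted p 0.329), although all 4 XZSW libraries were above all 4 CTL libraries. Hsf2 differed by -0.28 ± 0.21 and Hsf4 by -0.23 ± 0.39 in HUA against CTL, and by 0.56 ± 0.21 and 0.79 ± 0.39 in XZSW against HUA (log2, SE). Hsf3 and Hsf5 had standard errors above 1 in every comparison.

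Among the other small heat shock proteins, 2 of 8 tested rose in HUA against CTL, and they were Hspb8 and Hspb7. Hspb8, which works with BAG3 in selective autophagy, had 24.5, 35.1, 19.9 and 21.3 CPM in XZSW1 to XZSW4, 71.1, 61.6, 57.8 and 53.9 CPM in HUA1 to HUA4 and 7.49, 6.96, 6.96 and 9.70 CPM in CTL1 to CTL4. The groups were in the order of Hspb1 with no overlap, and unlike Hspb1 its HUA libraries lay close together. Hspb8 rose 7.85-fold in HUA against CTL (log2 2.97 ± 0.20 SE, edgeR adjusted p 3.04e-06), fell 2.43-fold in XZSW against HUA (-1.28 ± 0.19 SE, edgeR adjusted p 0.0013) and rose 3.24-fold in XZSW against CTL (1.69 ± 0.19 SE, edgeR adjusted p 0.00246). Cryab, a lens and muscle chaperone also made in kidney, had 200.6, 9.87, 105.6 and 159.0 CPM in XZSW1 to XZSW4, 113.8, 108.1, 201.4 and 142.5 CPM in HUA1 to HUA4 and 49.8, 48.5, 55.5 and 73.0 CPM in CTL1 to CTL4. All HUA libraries were above all CTL libraries, but XZSW2 was far below every other library, and the HUA against CTL change of 1.32 ± 0.57 (log2, SE) was not called (edgeR adjusted p 0.106).

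Of the other J-domain genes 2 of 15 rose and 8 fell in HUA against CTL. Dnaja1, a main partner of HSPA8, had 256.9, 255.1, 156.4 and 180.9 CPM in XZSW1 to XZSW4, 225.7, 187.7, 151.6 and 143.4 CPM in HUA1 to HUA4 and 341.8, 361.0, 565.7 and 434.5 CPM in CTL1 to CTL4, so both model groups lay below CTL. It fell 2.40-fold in HUA against CTL (log2 -1.27 ± 0.22 SE, edgeR adjusted p 0.00124) and 2.005-fold in XZSW against CTL (-1.0 ± 0.22 SE, edgeR adjusted p 0.0249). With library totals alone the HUA against CTL change of Dnaja1 was -0.94, still called (edgeR adjusted p 0.00392). Dnaja4 fell by 1.21 on the log2 scale in HUA against CTL and rose by 0.58 in XZSW against HUA. Dnajb5 rose 3.29-fold in HUA against CTL and fell 2.07-fold in XZSW against HUA.

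Mitochondrial chaperones, grouped after their values were seen, were called lower in HUA against CTL in 6 of 6 cases, at log2 changes of -1.09 to -0.54, beside the 12.8% of all genes that fell. They were Hspd1, its lid Hspe1 (-0.65), the mitochondrial HSP70 Hspa9 (-0.54), its partner Dnaja3 (-0.61), its exchange factor Grpel1 (-0.66) and the mitochondrial HSP90 Trap1 (-0.62). With library totals alone 2 of 6 were called lower and all 6 changes stayed negative, at -0.76 to -0.21. Reads of mitochondrially encoded genes were 13.5 to 17.2% of counts in XZSW, 7.85 to 11.3% in HUA and 11.7 to 14.9% in CTL. Of 9 kidney tubule and glomerulus markers 3 fell in HUA against CTL, Lrp2 (log2 -1.64), Slc34a1 (-1.5) and Atp6v1b1 (-0.6), and 1 rose, Nphs1 (0.76). The part of these in the mitochondrial chaperone values was not tested. Hspe1, whose start region holds the same array of blocks as Hspd1, had 53.9, 57.8, 87.4 and 63.5 CPM in XZSW1 to XZSW4, 42.0, 72.3, 65.9 and 68.3 CPM in HUA1 to HUA4 and 89.9, 88.1, 107.3 and 103.8 CPM in CTL1 to CTL4. No HUA library reached the lowest CTL library, and XZSW did not reach it either. The subunits of TRiC, the cytosolic chaperonin, were not called in HUA against CTL, 0 of 8 under TMM, at log2 changes of -0.33 to 0.26, while 2 rose with library totals. In XZSW against CTL 2 of the 6 mitochondrial genes fell, Hspd1 and Trap1. Of 8 chaperones of the endoplasmic reticulum, grouped in the same way, 2 fell in HUA against CTL, the J-domain protein Dnajc3 (-0.61) and the exchange factor Sil1 (-0.55). With library totals alone and with limma on log2(FPKM + 1) 0 of these 8 fell, and with DESeq2 4 did. Hspa5, the main HSP70 of that compartment, differed by -0.46 ± 0.18 in HUA against CTL and -0.09 ± 0.18 in XZSW against HUA (log2, SE), without a call. Over the list of 11 other HSP70 and HSP110 genes, Hspa9 alone was called in HUA against CTL, Hspa12a rose by 0.93 ± 0.27 in XZSW against HUA (log2, SE) and Hspa13, an HSP70-like protein of microsomes, fell by 0.78 ± 0.15 in XZSW against CTL (log2, SE, edgeR adjusted p 0.017).

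**Figure D4:**
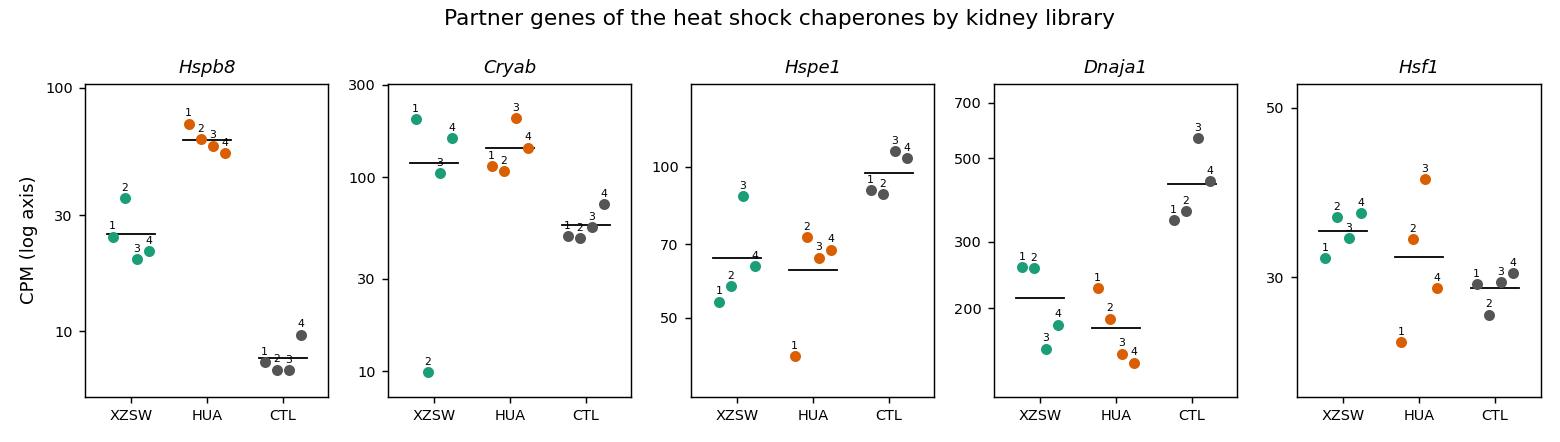
CPM (log axes that differ between panels) of Hspb8, Cryab, Hspe1, Dnaja1 and Hsf1 in the 4 XZSW, 4 HUA and 4 CTL libraries, with replicate numbers and group means as lines. Hspb8 was highest in HUA, Hspe1 and Dnaja1 were highest in CTL, Hsf1 overlapped between HUA and CTL, and Cryab was lowest in XZSW2.

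Of the HSP90 co-chaperones and the other HSP90 genes, 1 of 14 rose and 3 fell in HUA against CTL, beside 14.9% and 12.8% of all genes. Chordc1 fell by 0.91 ± 0.20 (log2, SE, edgeR adjusted p 0.00455), Trap1 and Ahsa1, the activator of the HSP90 ATPase, fell and Unc45a, a myosin chaperone, rose by 0.43. Hsp90ab1, the constitutive cytosolic HSP90, differed by -0.25 ± 0.16 in HUA against CTL and -0.16 ± 0.16 in XZSW against HUA (log2, SE), without a call. Of the exchange factors of HSP70 and the HSP70 interactor HIP, 4 of 10 fell in HUA against CTL, among them Grpel1 and St13, the gene of HIP. In XZSW against HUA Bag2 fell 2.69-fold and Bag3 1.54-fold. Bag3, itself a heat shock inducible gene, was not called in HUA against CTL, at 0.33 ± 0.17 (log2, SE). Of 6 other heat shock inducible genes, Ier5 rose 6.24-fold in HUA against CTL and fell 3.85-fold in XZSW against HUA; it is also an immediate early gene. Cacybp and Dedd2 fell in HUA against CTL. Immediate early markers summed to 121.2 to 435.7 CPM in XZSW, 506.3 to 1552 CPM in HUA and 450.3 to 576.4 CPM in CTL, and 6 of 10 rose and 1 fell in HUA against CTL; their part in the Ier5 change was not tested.

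**Figure D5:**
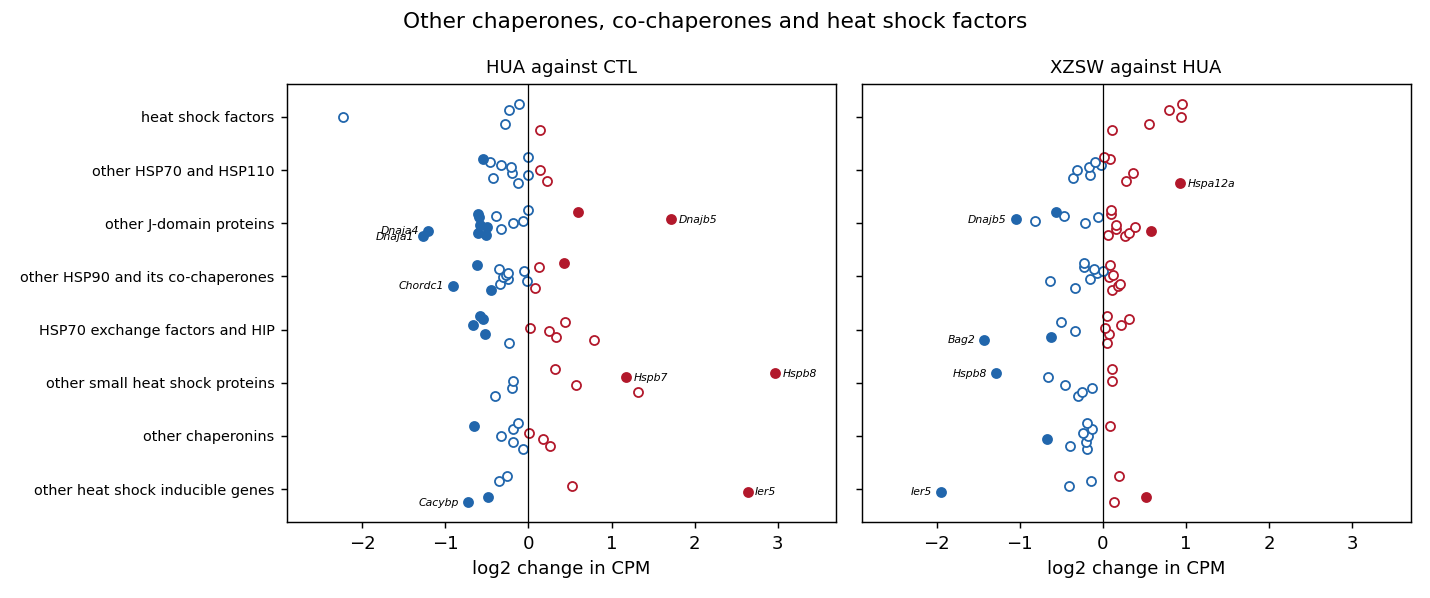
Log2 change in CPM of the 78 other genes tested in HUA against CTL and XZSW against HUA, by family; filled points were called at an adjusted p under 0.05, and called genes past 0.7 in either direction are named. Hspb8, Ier5 and Dnajb5 lie to the right in HUA against CTL, at 2.97, 2.64 and 1.72, and to the left in XZSW against HUA.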

How the data were processed

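Kidney RNA of 12 mouse samples was analysed. Strand-specific libraries were made from TRIzol RNA, per the labels' protocols. Reads were trimmed with cutadapt 1.9 and aligned with HISAT2 2.2.1 to GRCm38, per the submitters' processing notes. How reads were counted is not given in the sources used here. For each gene the authors deposited raw counts and FPKM in 1 table, per the file headers. Columns carry the letters C, N and M, matched to CTL, HUA and XZSW through the sample descriptions alone; N and M are not abbreviations of the titles.

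Counts were filtered with filterByExpr, which left 19772 genes, scaled by TMM and tested with edgeR 4.0.16's quasi-likelihood test over all 12 libraries, with Benjamini-Hochberg adjustment over all tested genes and a threshold of 0.05; standard errors come from the F statistic. DESeq2 1.42.0, limma 3.58.1 on log2(FPKM + 1), other scalings and filters, a replicate block, a library kind term and leaving out each library were alternatives; fits within each kind of library were added after the data were seen. Same-numbered libraries of different groups deviated together with r from -0.046 to 0.174, over 0.1 in 2 of 12 pairs. The pair at 0.174 was HUA1 and XZSW1. The main fit used no pairing, but low r cannot exclude that same-numbered samples were handled together. The fit was tested on simulated data with the same relative spread for every gene and no GC or length differences between libraries. That test checks the code and not the calls made here. Motifs were searched in RefSeq windows. Named genes were the 8 members, all heat shock factors and, of each other list, the 4 genes with the smallest p per comparison; the mitochondrial, endoplasmic reticulum and TRiC groupings were made, and Dnajc3 was named, after their values were seen. Members and lists were chosen with earlier results of these data known. Software was R 4.3.3 and Python 3.11.15 with scipy 1.17.1, pandas 2.3.3, numpy 2.4.6 and matplotlib 3.10.9.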

Additional observations from a re-analysis of the deposited data

Results flagged for a closer look

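Hspa1b in HUA1 was at 159.3 CPM, against 50.4 to 58.2 CPM in the other 3 HUA libraries. Its gap to the nearest of them was 0.928 of the group's range, above Dixon's 95% critical value for 4 samples. Chance flags about 1 in 20 such groups, and 24 were examined, 8 genes in 3 groups. Hspa1a, whose reads overlap with those of Hspa1b, was also highest in HUA1, at 92.3 CPM. Without HUA1 the HUA against CTL change of Hspb1 and Hspd1 remained called, and that of Hspa1b was -0.33 on the log2 scale.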

How the results depend on the processing

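The Hspb1 and Hspd1 calls in HUA against CTL were made in all 24 alternatives. Against CTL, HUA called 2 of the 8 genes with the library kind as a further term and 2 within CTL, HUA1, XZSW1 and XZSW2, and 3 to 5 without 1 library. XZSW against HUA called 2 with DESeq2, library totals or the replicate block, 0 within the GC-rich kind and 1 to 2 without 1 library. XZSW against CTL called 2 with DESeq2, 2 on the 8 libraries alone, 2 within the kind that holds CTL, 0 with no filter, 0 with limma at either pseudocount and 0 to 1 without 1 library. The cause of these differences was not tested. The replicate block changed no other call of the 8 genes.

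Of the other chaperone genes, XZSW against HUA called 4 on its 8 libraries, 1 within the GC-rich kind, 6 within the other kind and 4 to 12 without 1 library. XZSW against CTL called 21 with DESeq2, 4 with no filter, 12 with a CPM minimum, 4 with limma on log2(FPKM + 1), 22 on its 8 libraries, 12 with the kind term, 17 within the kind that holds CTL and 1 to 20 without 1 library. Of all genes, XZSW against HUA called 1439 on its 8 libraries, 41 within the GC-rich kind and 1711 to 3817 without 1 library; XZSW against CTL called 2417 with DESeq2, 529 with no filter, 1744 with limma on log2(FPKM + 0.1), 2625 on its 8 libraries, 1750 with the kind term, 2841 within the kind that holds CTL and 133 to 1596 without 1 library.

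Uncalled log2 changes reversed as follows. In HUA against CTL, Hspa1a was -0.00 with the replicate block, Dnajb1 0.02 with the kind term and 0.18 within the kind that holds CTL, and Hsp90aa1 0.28 with library totals, 0.01 with no filter and 0.32 with limma at either pseudocount. In XZSW against HUA, Dnajb1 was -0.15 with library totals, -0.07 with limma at either pseudocount, -0.10 with the kind term and -0.32 within the kind that holds CTL, and Hspa8 was -0.18 within the GC-rich kind. In XZSW against CTL, Hspa1a was 0.03 and 0.04 with limma and 0.17 with the kind term, and Hspa1b -0.17 with the replicate block. Without 1 library, Hspa1a ran from -0.41 to 0.48, -0.77 to 0.15 and -0.71 to 0.14, and Hspa1b from -0.33 to 0.68, -0.87 to 0.40 and -0.65 to 0.51, each time for HUA against CTL, then XZSW against HUA, then XZSW against CTL; Dnajb1 ran from -0.12 to 0.24 in XZSW against HUA and Hsp90aa1 from -0.20 to 0.16 in HUA against CTL.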
